A study of Rattus norvegicus with 18 samples.

Results

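The 7 genes described here are the complex I subunits that rat mitochondria encode in their own DNA. They were taken by Ensembl identifier from a list that names each: Mt-nd1 (ENSRNOG00000030644), Mt-nd2 (ENSRNOG00000031033), Mt-nd3 (ENSRNOG00000033615), Mt-nd4 (ENSRNOG00000029707), Mt-nd4l (ENSRNOG00000031053), Mt-nd5 (ENSRNOG00000029971) and Mt-nd6 (ENSRNOG00000029042). All 7 were present among the 37262 genes listed. No table used here checks the names against the identifiers. RNA of rat heart, depleted of ribosomal RNA, was sequenced in 18 libraries of 3 groups of 6. The groups were WKY (Wistar-Kyoto, the normotensive strain usually set beside SHR), SHR (the spontaneously hypertensive rat) given NS, and SHR given QDG. The labels expand neither NS nor QDG, give no dose, time, age or sex, and are silent on NS in WKY, so strain and NS may be confounded and cannot then be told apart. The labels do not say that each library is a separate animal, so p-values measure only the spread between these libraries.

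Complex I, the NADH dehydrogenase of the inner mitochondrial membrane, passes electrons from NADH to ubiquinone and pumps protons as it does so. Its mitochondrially encoded subunits form the core of the membrane arm, and the nucleus encodes the peripheral arm and the accessory subunits. The heart, which lives on oxidative metabolism, is rich in mitochondria. Mitochondrial DNA is copied from each strand into long transcripts that are cut at the tRNAs between the genes. Mt-nd6 is the only protein gene read from the light-strand promoter, and the other complex I genes come from the heavy-strand promoter. Mt-nd4l and Mt-nd4 share a messenger RNA.

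In the SHR heart the 6 genes read from the heavy-strand promoter were higher than in WKY, by 1.51-fold to 2.56-fold, and Mt-nd6 was lower by 1.62-fold. All 7 passed the test, where 12.2% of all genes tested were called higher and 12.6% lower. Treatment with QDG changed none of the 7 past the threshold, in a comparison where only 0.293% of all genes tested were called. In treated SHR, 5 of the 6 heavy-strand genes were called higher than in WKY, and Mt-nd6 was called lower. Of all genes tested, 11.7% were called higher and 9.2% lower there. Values are read as FPKM (read fragments per gene length and sequencing total, as normalized by the authors), and folds are ratios of group means in FPKM. Tests were made with limma on log2(FPKM + 1) over the 17397 genes that reached 1 FPKM in 6 or more libraries, and a call is a Benjamini-Hochberg adjusted p under 0.05 over all of them. All 7 genes passed that filter through every library, as the lowest value of any of them was 265 FPKM.

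These were among the most abundant genes of the heart libraries. By mean FPKM over the 18 libraries Mt-nd2 ranked 15th of all genes listed, Mt-nd1 16th, Mt-nd4l 18th and Mt-nd5 19th. Mt-nd4 ranked 28th, Mt-nd6 40th and Mt-nd3 89th. Together the 7 took 1.93% ± 0.463 of the summed FPKM in WKY, 3.59% ± 0.419 in SHR and 3.10% ± 0.421 after QDG (SD, n = 6 each). The WKY libraries spanned 1.20% to 2.47%, below all SHR libraries at 3.02% to 4.17% and all treated libraries at 2.56% to 3.73%. The treated and untreated SHR ranges overlapped.

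**Figure D1:**
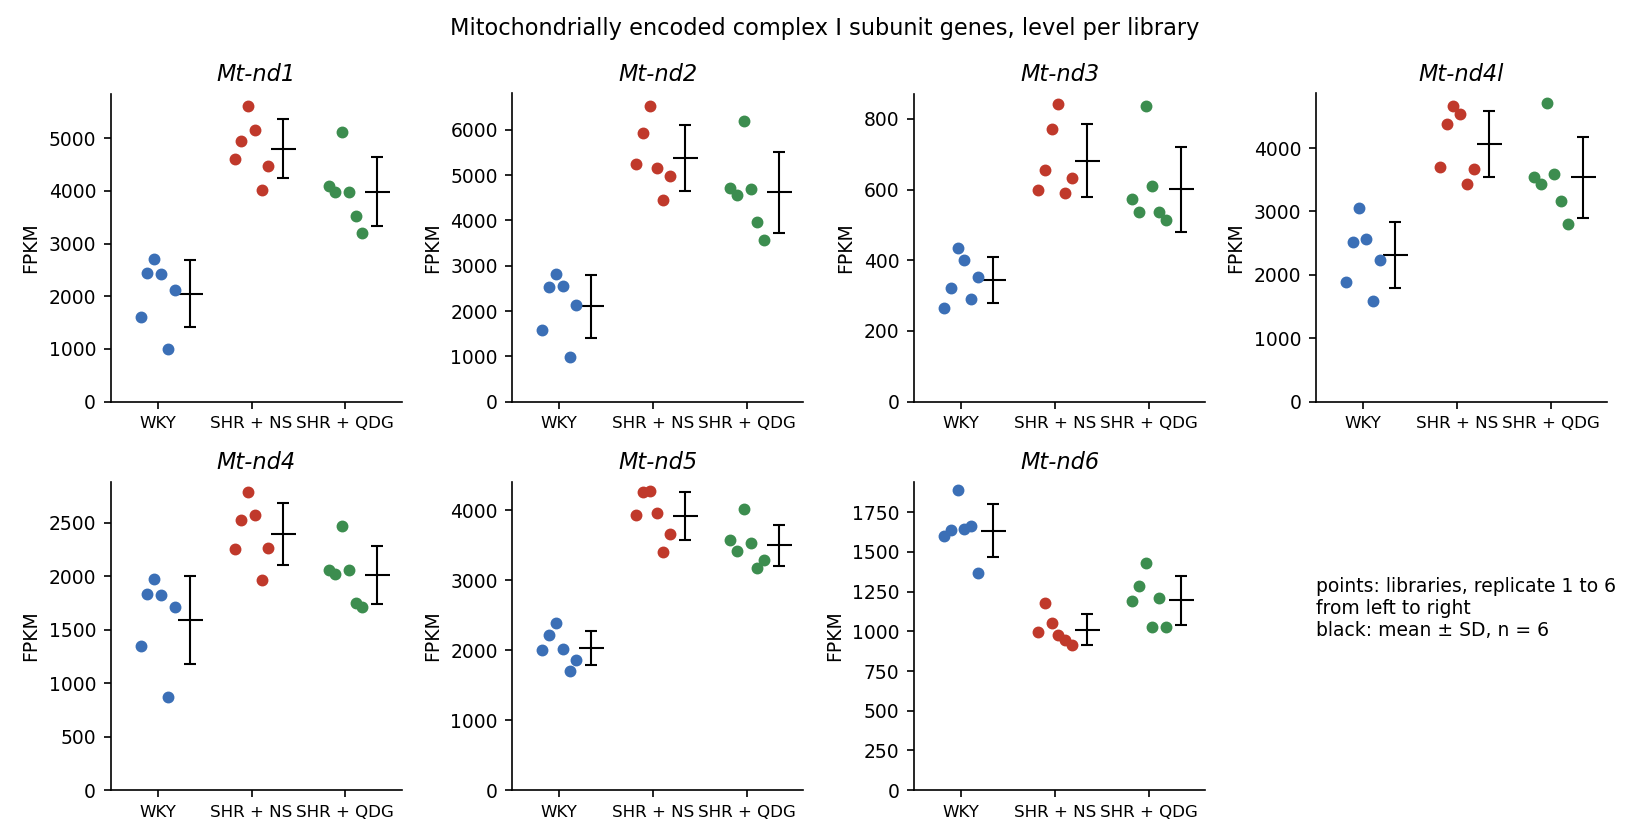
Level of each of the 7 genes in FPKM (vertical axes, from 0) in each library, by group on the horizontal axis, with points for libraries and black marks for mean ± SD (n = 6). The WKY points lie below the SHR points for the heavy-strand genes, with a single overlap in Mt-nd4, and above them for Mt-nd6.

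Mt-nd2, Mt-nd4 and Mt-nd5 encode the antiporter-like subunits thought to move protons, and of these Mt-nd2 differed most. Mt-nd2 lay between 978 and 2822 FPKM in WKY (median 2332), between 4454 and 6526 in SHR (median 5212) and between 3572 and 6189.8 after QDG (median 4634). No SHR library reached down to the highest WKY library. The mean rose from 2101 ± 699 to 5385 ± 732 FPKM (SD, n = 6 each; limma log2 fold change 1.43, SE 0.21, adjusted p = 5.0e-05) and ranked 54 of the 17397 genes by log2 fold change. Mt-nd5, the subunit at the far end of the arm, had the tightest values of the heavy-strand genes. It lay between 1698 and 2394 FPKM in WKY (median 2011), between 3407 and 4276 in SHR (median 3944) and between 3177 and 4019 in treated SHR (median 3476). Its groups of WKY and SHR did not overlap either, and the smaller spread gave the smallest p of the 7 (log2 fold change 0.95, SE 0.08, limma adjusted p = 5.2e-08). Mt-nd4 differed least. It lay between 867 and 1973 FPKM in WKY (median 1768), between 1971 and 2787 in SHR (median 2399) and between 1709 and 2468 in treated SHR (median 2039). The lowest SHR library, replicate 5, lay just below the highest WKY library, replicate 3, and the other 5 SHR libraries lay above all of WKY. The mean was 1593 ± 414 in WKY and 2397 ± 290 FPKM in SHR (SD, n = 6 each; limma log2 fold change 0.63, SE 0.16, adjusted p = 0.0065). This call was lost (log2 fold change 0.34, limma adjusted p = 0.0988) with 1 covariate added, the share of the second most abundant gene. That gene is the one ranked second by mean FPKM over the 18 libraries, and its mean share differed between the strains, as given below.

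The remaining heavy-strand genes encode the subunits on the side where ubiquinone binds. Mt-nd1, which forms much of the ubiquinone channel, lay between 996 and 2708 FPKM in WKY (median 2269.9), between 4011 and 5615 in SHR (median 4774) and between 3199 and 5117 in treated SHR (median 3979). Every SHR library was above every WKY library, with a rise of the mean from 2049 ± 638 to 4800.4 ± 563 FPKM (SD, n = 6 each; limma log2 fold change 1.29, SE 0.19, adjusted p = 5.1e-05). Mt-nd3, whose loop lies at the junction of both arms, was the least abundant member in all 18 libraries. It lay between 265 and 435 FPKM in WKY (median 337), between 591 and 843 in SHR (median 644) and between 514 and 837 in treated SHR (median 556). WKY and SHR were again apart (log2 fold change 0.99, SE 0.13, limma adjusted p = 1.7e-05). Mt-nd4l, a small subunit between the ubiquinone side and the antiporter-like subunits, lay between 1590.5 and 3061 FPKM in WKY (median 2377), between 3426 and 4655 in SHR (median 4037) and between 2808 and 4705 in treated SHR (median 3487). WKY and SHR did not overlap, and the log2 fold change was 0.83 (SE 0.14, limma adjusted p = 0.00021).

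Mt-nd6, another small membrane subunit, went the other way. It lay between 1368 and 1891 FPKM in WKY (median 1638), between 911 and 1180 in SHR (median 986) and between 1029 and 1429 in treated SHR (median 1201). All 6 SHR libraries were below all 6 WKY libraries, and the mean fell from 1634 ± 166 to 1010.4 ± 96.3 FPKM (SD, n = 6 each; limma log2 fold change -0.69, SE 0.09, adjusted p = 8.0e-06). By log2 fold change from high to low it ranked 17070 of the 17397 genes tested. As a share of summed FPKM, Mt-nd6 was 0.259% ± 0.0291 in WKY and fell to 0.163% ± 0.0177 among SHR libraries (SD, n = 6 each). Whether the authors counted by strand is not stated in the sources used here, so reads from Mt-nd6 and reads from the opposite strand at the same place cannot be told apart.

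Over all genes tested, 12.2% were called higher and 12.6% lower in SHR than in WKY, against 6 and 1 of the 7 members. The 6 heavy-strand genes moved together within groups, as given below, so their calls in any comparison are not separate evidence. The members were also chosen with earlier results of these data known. The median log2 fold change was 0.95 over the members and -0.01 over all genes. Groups that did not overlap, with SHR higher, were seen for 5 members and for 6.41% of all genes, and with SHR lower for 1 member and for 6.09%. Among the 100 most abundant genes, which include the 7 members, 23% were called higher and 13% lower, with a median log2 fold change of 0.00. The signs of the 7 fold changes were the same in all 32 alternative settings of this comparison, including 5 other scalings of the libraries.

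**Figure D2:**
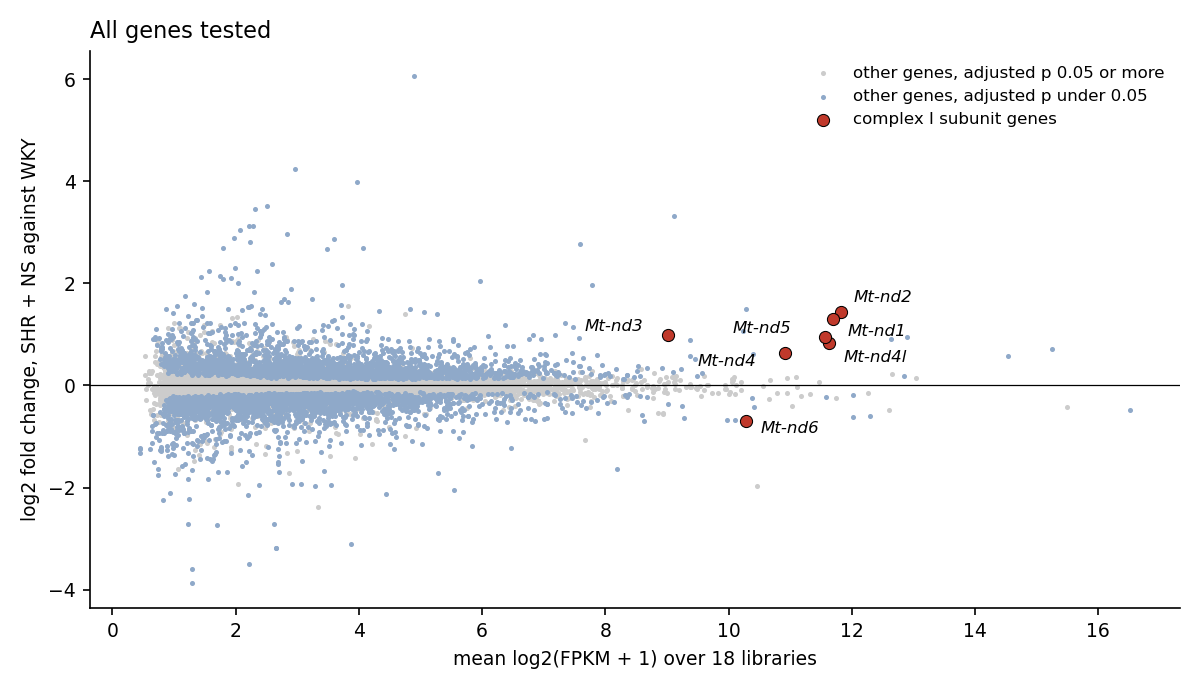
Log2 fold change of SHR against WKY (vertical axis) against mean log2(FPKM + 1) over 18 libraries (horizontal axis) for the 17397 genes tested, with the 7 members in red. The 6 heavy-strand genes lie at the upper right and Mt-nd6 lies below 0.

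Each gene's share of the library repeated the order of the levels. From WKY to SHR the mean share went from 0.337% ± 0.119 to 0.870% ± 0.126 for Mt-nd2 and from 0.328% ± 0.109 to 0.775% ± 0.0924 for Mt-nd1 (SD, n = 6 each). The share of Mt-nd4l went from 0.369% ± 0.0927 to 0.655% ± 0.0847 and that of Mt-nd5 from 0.324% ± 0.0494 to 0.633% ± 0.0603. Mt-nd4 went from 0.255% ± 0.0723 to 0.387% ± 0.0478 and Mt-nd3 from 0.0548% ± 0.0113 to 0.110% ± 0.0154. In treated SHR the shares were 0.735% ± 0.129 for Mt-nd2, 0.635% ± 0.0941 for Mt-nd1, 0.563% ± 0.0902 for Mt-nd4l and 0.558% ± 0.0419 for Mt-nd5. They were 0.321% ± 0.0401 for Mt-nd4, 0.191% ± 0.0230 for Mt-nd6 and 0.0956% ± 0.0162 for Mt-nd3 (SD, n = 6 each). A different share of muscle cells in the heart piece and a different level per cell cannot be told apart in these bulk libraries.

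The order of the members differed between the strains. In WKY, Mt-nd4l was above Mt-nd1 in 6 of 6 libraries and above Mt-nd2 in 5 of 6. In SHR and in treated SHR the order was reversed, with Mt-nd1 and Mt-nd2 above Mt-nd4l in 6 of 6 libraries of each group. Mt-nd2 stood highest of the 7 in all 12 SHR libraries, treated or not, and in 1 of 6 WKY libraries. Mt-nd4l and Mt-nd5 did not keep an order, with Mt-nd4l higher in 4 of 6 WKY, 4 of 6 SHR and 3 of 6 treated libraries. Mt-nd6 stood at place 6 of the 7 in all 12 SHR libraries and in 4 of the WKY libraries, but at place 4 in WKY replicate 1 and at place 2 in WKY replicate 5. FPKM sets these levels per length, and how the authors treated the ends of short genes such as Mt-nd3 and Mt-nd4l is not stated in the sources used here.

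Ratios of 2 genes within a library do not depend on how the library was scaled, and those with Mt-nd6 separated the strains. They are given as descriptions with no test, since the pairs were chosen after the values were seen. The ratio of Mt-nd6 to the mean of the other 6 was 0.993 ± 0.298 in WKY, 0.287 ± 0.0253 in SHR and 0.396 ± 0.0427 after QDG (SD, n = 6 each). WKY spanned 0.788 to 1.55, SHR 0.257 to 0.318 and treated SHR 0.334 to 0.451, so that no pair of groups overlapped. Against Mt-nd5 alone, its neighbour on the other strand, Mt-nd6 stood at 0.736 to 0.979 in WKY (median 0.795), 0.246 to 0.278 in SHR (median 0.251) and 0.292 to 0.382 in treated SHR (median 0.344). Here the 3 groups were also apart, with treated SHR just above untreated SHR and far below WKY. Both ratios contain Mt-nd6 and Mt-nd5, so the second is not separate evidence. How often ratios of other genes separate treated from untreated SHR was not examined. Without WKY replicate 5 the ratio to the other 6 was 0.881 ± 0.128 in WKY (SD, n = 5).

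**Figure D3:**
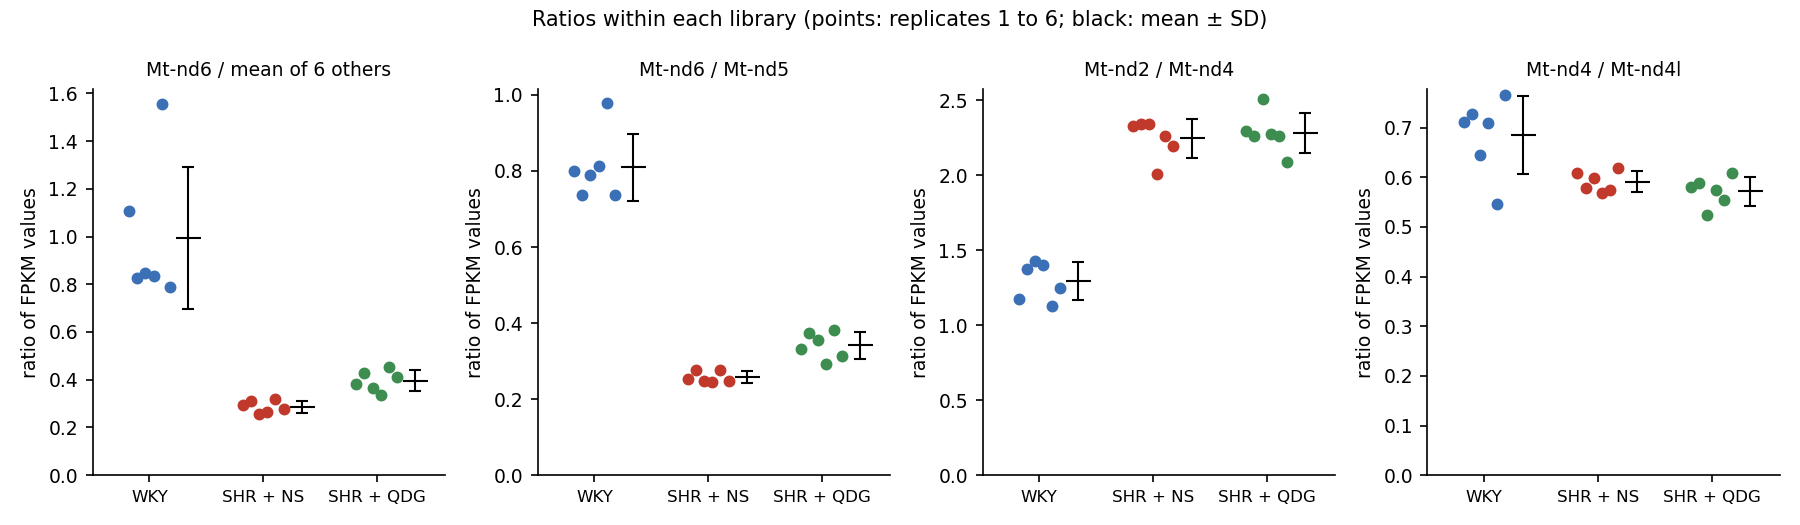
Ratios of FPKM values within each library (vertical axes, from 0) by group, with points for libraries and black marks for mean ± SD (n = 6). Both ratios with Mt-nd6, which share genes, separate all 3 groups, whereas the ratio of Mt-nd2 to Mt-nd4 separates WKY from both SHR groups.

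Among the heavy-strand genes, some ratios separated the strains in every library, and in others a single library broke the separation. Mt-nd2 stood at 1.29 ± 0.127 times Mt-nd4 in WKY, 2.25 ± 0.130 in SHR and 2.28 ± 0.133 in treated SHR (SD, n = 6 each). The highest WKY ratio was 1.43 and the lowest SHR ratio 2.01. Mt-nd1 likewise stood at 1.27 ± 0.0884 times Mt-nd4 in WKY, 2.01 in SHR at the median (1.96 to 2.04) and 1.98 ± 0.0697 in treated SHR (SD, n = 6 each), and WKY (1.15 to 1.37) again lay apart from SHR. Treated and untreated SHR overlapped in both ratios. For the pair on a shared messenger RNA, Mt-nd4 stood at 0.684 ± 0.0786 times Mt-nd4l in WKY, 0.591 ± 0.0203 in SHR and 0.572 ± 0.0292 in treated SHR (SD, n = 6 each). WKY replicate 5, at 0.545, lay below all SHR libraries, and the other 5 WKY libraries, at 0.645 to 0.766, lay above them. Mt-nd2 to Mt-nd1 stood closer to parity, at 1.02 ± 0.0314 in WKY, 1.12 ± 0.0667 in SHR and 1.16 ± 0.0353 in treated SHR (SD, n = 6 each), and WKY (up to 1.06) overlapped SHR (from 1.002). That overlap came from SHR replicate 4 alone, as the other SHR libraries lay at 1.11 to 1.20. WKY and SHR also overlapped in Mt-nd5 to Mt-nd4, at 1.09 to 1.96 and 1.53 to 1.74, and in Mt-nd3 to Mt-nd4, at 0.175 to 0.335 and 0.259 to 0.327. Both overlaps came from WKY replicate 5 alone, at 1.96 and 0.335. Without it WKY spanned 1.09 to 1.49 and 0.175 to 0.221, below all SHR libraries.

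The second comparison asked what QDG changed in the SHR heart, and none of the 7 genes was called. Over all genes tested 0.293% were called, 0.207% higher and 0.0862% lower. Treated and untreated SHR were without overlap for none of the 7 and for 1.15% of all genes. The 6 heavy-strand genes had lower means after treatment, at 0.830 of the SHR mean for Mt-nd1, 0.839 for Mt-nd4, 0.858 for Mt-nd2, 0.872 for Mt-nd4l, 0.882 for Mt-nd3 and 0.894 for Mt-nd5. For Mt-nd1 the log2 fold change was -0.28 (95% confidence interval -0.67 to 0.12, limma adjusted p = 0.667) and 4 of 6 treated libraries lay below all SHR libraries. That count was also 4 for Mt-nd3, but 2 for Mt-nd2, Mt-nd4, Mt-nd4l and Mt-nd5. In Mt-nd4l, 1 treated library lay above all SHR libraries. How many of all genes reach such counts was not computed. For Mt-nd5, with the narrowest interval, the log2 fold change was -0.16 (95% confidence interval -0.33 to 0.01, limma adjusted p = 0.521). The widest interval was that of Mt-nd2, at -0.23 (95% confidence interval -0.67 to 0.20, limma adjusted p = 0.753). The intervals of all 6 heavy-strand genes included 0, and the lower bounds reached from -0.67 to -0.33. With the share of the second most abundant gene as a covariate, the log2 fold changes were -0.05 for Mt-nd1, -0.06 for Mt-nd4, -0.07 for Mt-nd4l, -0.13 for Mt-nd3 and -0.09 for Mt-nd5, and that of Mt-nd2 turned to 0.0041.

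Mt-nd6 had the smallest unadjusted p of the 7 after treatment (limma, 0.0136). Its mean was 1010.4 ± 96.3 FPKM in SHR and 1196 ± 153 with QDG (SD, n = 6 each). The log2 fold change was 0.24 (95% confidence interval 0.05 to 0.42, limma adjusted p = 0.320). Of the treated libraries 4 of 6 lay above all SHR libraries, a count whose share over all genes was not computed. At an unadjusted p under 0.05 stood 1 of the 7 members and 1817 of the 17397 genes tested. The adjusted p of Mt-nd6 ranged from 0.113 to 0.551 over the 32 alternative settings.

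**Figure D4:**
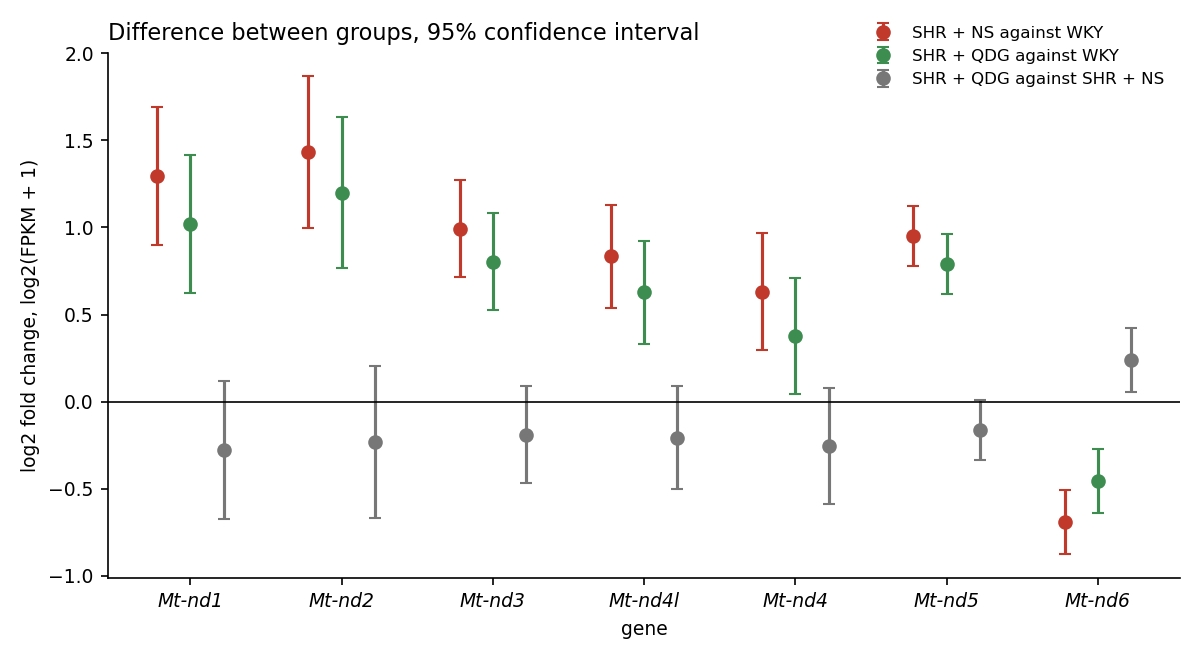
Log2 fold change on the log2(FPKM + 1) scale (vertical axis) of each gene (horizontal axis) in the 3 comparisons, with 95% confidence intervals from limma. Both comparisons with WKY share the WKY libraries, and the intervals of treated against untreated SHR include 0 for all genes except Mt-nd6.

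In the third comparison, of treated SHR with WKY, 5 members were called higher and 1 lower, against 11.7% and 9.2% of all genes. It shares the WKY libraries with the comparison of strains and the treated libraries with that of treatment, so its values stand beside theirs and are not separate evidence. The ratio of means was 2.20 for Mt-nd2, 1.94 for Mt-nd1, 1.75 for Mt-nd3, 1.72 for Mt-nd5 and 1.53 for Mt-nd4l, with limma adjusted p from 6.7e-07 (Mt-nd5) to 0.0031 (Mt-nd4l). The call of Mt-nd4l was lost with quantile normalization (log2 fold change 0.43, adjusted p = 0.0834). Mt-nd4 was not called, at 1.26 times the WKY mean (log2 fold change 0.38, 95% confidence interval 0.04 to 0.71, limma adjusted p = 0.107). Without WKY replicate 5 its log2 fold change was 0.21 (limma adjusted p = 0.187). Mt-nd6 was at 0.732 of the WKY mean (log2 fold change -0.45, SE 0.09, limma adjusted p = 0.00077). Of the treated libraries 5 of 6 lay below all of WKY. Groups that did not overlap were found for Mt-nd1, Mt-nd2, Mt-nd3 and Mt-nd5, all higher, against 5.83% of all genes, and for no member that was lower, against 4.59%.

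Within groups the heavy-strand genes moved together from library to library. With group means removed, the 15 pairs among the 6 genes correlated at 0.64 to 0.99 over the 18 libraries (median Pearson r 0.88, on log2(FPKM + 1)), a description of libraries that also share their scaling. Mt-nd1 and Mt-nd4 were the closest pair (0.99). Mt-nd6 followed the others less, at 0.29 to 0.61 (median 0.38). That median was 0.60 without WKY replicate 5 and 0.24 without QDG replicate 3. The 2 genes outside the 7 whose pattern was most like theirs, by the median of such correlations over the 7, were ENSRNOG00000031979 (0.95) and ENSRNOG00000030371 (0.95), and with Mt-nd6 alone they correlated at 0.30 and 0.44.

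WKY replicate 5 stood lowest of its group in 5 of the 6 heavy-strand genes. Its Mt-nd1 was at 996 FPKM and its Mt-nd2 at 978, where the next lowest WKY library, replicate 1, was at 1604 and 1582. Its Mt-nd6, at 1662 FPKM, was within the range of the others. Beyond the members, this library had the most genes at 0 FPKM (6972) and the largest summed FPKM (676288) of the 18 libraries. Its share of the most abundant gene, at 16.1%, was within the range of the other WKY libraries. Without this library the log2 fold changes of SHR against WKY were 1.10 for Mt-nd1, 1.23 for Mt-nd2, 0.95 for Mt-nd3, 0.73 for Mt-nd4l, 0.47 for Mt-nd4, 0.90 for Mt-nd5 and -0.69 for Mt-nd6, and all 7 stayed called (limma adjusted p up to 0.0038, in Mt-nd4). The spread of WKY also narrowed, with the coefficient of variation of Mt-nd2 going from 33.3% to 20.7%, against 13.6% in SHR and 19.4% in treated SHR. Replicate 3 was highest in its group for 6 of 6 heavy-strand genes in WKY, 5 of 6 in SHR and 6 of 6 in treated SHR, and replicate 5 was lowest for 5, 6 and 1 of them. The labels do not say what a replicate number stands for.

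**Figure D5:**
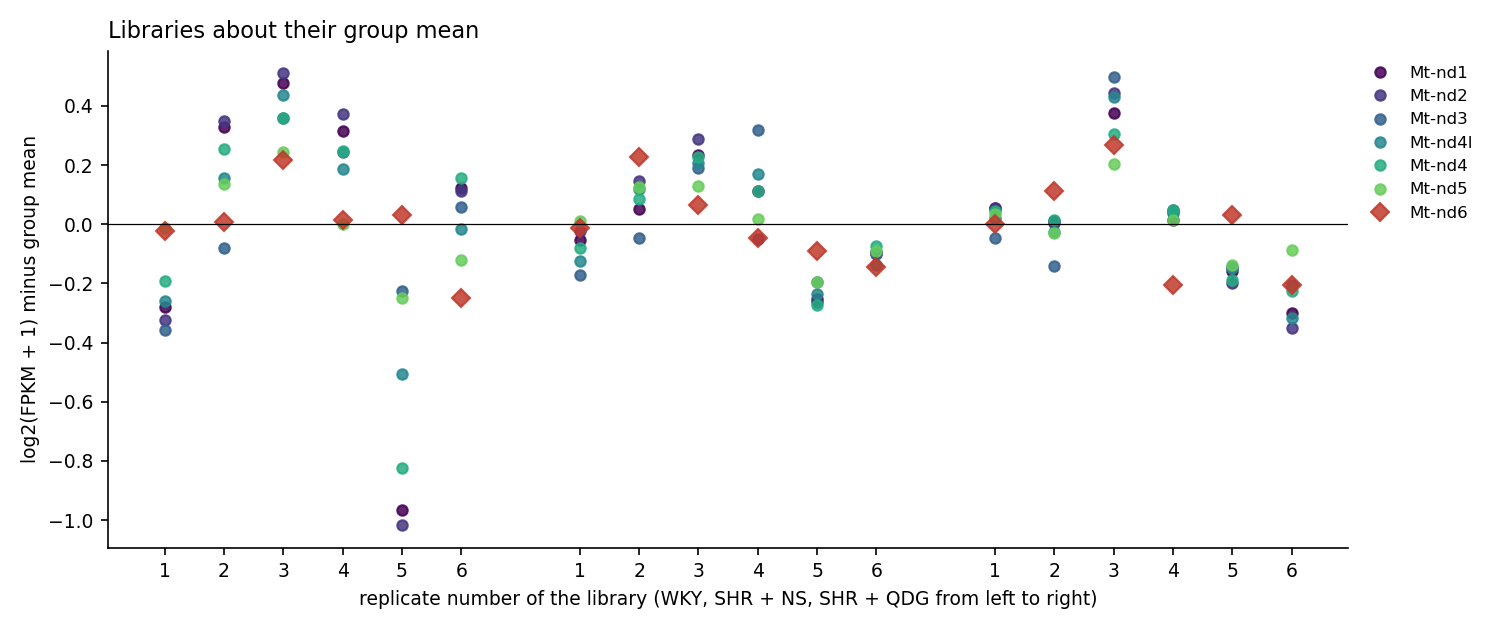
Each library's log2(FPKM + 1) minus its group mean (vertical axis) for the 7 genes, by replicate number within WKY, SHR and treated SHR (horizontal axis), with Mt-nd6 as red diamonds. In WKY replicate 5, 5 of the 6 heavy-strand genes are at the lowest of their group and Mt-nd6 stays near 0.

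Other features of the libraries moved with these genes. Genes are ranked here by mean FPKM over the 18 libraries, not within each library. The most abundant gene took 16.0% to 21.1% of the summed FPKM in WKY and 12.8% to 14.9% in SHR. The second had a mean share of 8.54% ± 2.04 in WKY, 6.41% ± 0.640 in SHR and 7.76% ± 1.61 after QDG (SD, n = 6 each). Its share was highest in WKY replicate 5, and the WKY range, from 6.49%, overlapped the SHR range, up to 7.54%. The third took 3.59% to 5.34% in WKY and 6.86% to 9.01% in SHR, and the fourth took 1.41% to 4.33% and 3.72% to 5.09%. With group means removed, the summed share of the 6 heavy-strand genes followed that of the fourth most abundant gene (r = 0.95 over 18 libraries) and ran against that of the second (r = -0.73), on the log2 scale. With the most abundant gene r was 0.62, although that gene was lower in SHR, and with the third it was 0.36. Without WKY replicate 5, r was 0.91 with the fourth, -0.60 with the second, 0.44 with the most abundant and 0.39 with the third. With the share of the second as a covariate, the log2 fold changes of SHR against WKY were 0.96 for Mt-nd1, 1.07 for Mt-nd2, 0.91 for Mt-nd3, 0.62 for Mt-nd4l and 0.84 for Mt-nd5, all still called by limma, and -0.72 for Mt-nd6, also called. Mt-nd4 was the exception given above. The mean of this covariate differed between the groups, so these fits cannot separate its part from that of strain or treatment. Rescaled to the sum of all genes other than the 20 most abundant, all 7 remained called. The part of the other abundant genes in these differences was not tested. Absolute depth is unknown, and library sums ran from 598626 to 676288 FPKM. The files pair no identifier with a symbol, so the nuclear-encoded subunits of complex I and the markers of heart muscle and other cell types were not analysed here. Nuclear copies of mitochondrial genes can share reads with the 7, and how such reads were counted is not stated in the sources used here.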

How the data were processed

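Total RNA from rat heart was extracted with Trizol, depleted of rRNA and made into libraries with a NEB kit for Illumina, per the labels' protocols. The deposited values were taken as FPKM, normalized by the authors. The unit is inferred from values that are not whole and from library sums that differ. Of tools, the submitters' processing notes list only limma, with no version. Aligner, counter, build, annotation and strand handling are not stated in the sources used here.

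Genes that reached 1 FPKM in 6 or more libraries (17397) entered 1 limma fit (version 3.58.1, statmod 1.5.0, R 4.3.3) of log2(FPKM + 1) over the 18 libraries, with group means, 3 contrasts, an intensity trend and robust moderation. The two-sided p-values were adjusted by Benjamini-Hochberg over every gene in the fit. The script was tested on simulated data. Shares, ratios and correlations were computed in Python 3.11.15. Alternatives were other scalings, pseudocounts of 0.1 and 0.01, no filter or one at 5 FPKM, other variance models, the 12 compared libraries alone, a replicate block and each library left out. The members and lists were chosen with earlier results of these data known. All 7 members are named, as are the 2 genes most like them. The reference (47357 entries, 0 with an Ensembl identifier) matched 0 identifiers, so 11 lists of 127 symbols were not tested.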

Additional observations from a re-analysis of the deposited data

Results flagged for a closer look

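In 45 sets of 6 values (the 7 levels and 8 ratios in each group) 3 values, from 2 libraries, lay far from the other 5 of their group, where chance flags about 1 in 20 sets and the sets share libraries and genes. Mt-nd3 reached 837 FPKM in QDG replicate 3, against 514 to 610.3 in the other treated libraries. The ratio of Mt-nd6 to Mt-nd5 was 0.979 in WKY replicate 5 and 0.736 to 0.813 in the other WKY libraries. The ratio of Mt-nd3 to Mt-nd4 was 0.335 in WKY replicate 5 and 0.175 to 0.221 in the others.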

How the results depend on the processing

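Each fold change was recomputed under 32 settings, 672 values in all, of which 1 changed sign, 2 lost the call and 1 gained it. Members called for SHR against WKY numbered 6 or 7, for QDG-treated SHR against WKY 5 to 7, and for QDG-treated against untreated SHR 0 in all settings. With the share of the second most abundant gene as a covariate, chosen after seeing the data, Mt-nd2 for QDG against SHR turned from -0.23 to 0.0041 (adjusted p = 0.997) and Mt-nd4 for SHR against WKY lost its call. Quantile normalization ended the call of Mt-nd4l for QDG against WKY. The cause was not tested. With the most abundant gene left out of the sum, the share of the 7 was 2.38% in WKY, 4.16% in SHR and 3.58% in treated SHR, which follows from the smaller sum. Leaving out 1 library in turn, the median correlation of Mt-nd6 with the other 6 ranged from 0.236 to 0.603. Pairing by replicate number was weak over all genes: the correlation of equal numbers lay between -0.05 and 0.16 for SHR with WKY, between -0.06 and 0.13 for QDG with SHR, and between -0.04 and 0.19 for QDG with WKY. The closest library of another group had the same number for 5 of 18. A replicate block kept 7 and 0 members called for SHR against WKY and QDG against SHR, and gave 7 for QDG against WKY, with Mt-nd4 at an adjusted p of 0.0174. The block also gave each of the 7 members a smaller SE, unlike the weak pairing over all genes. For SHR against WKY the SE went from 0.132 to 0.073 in Mt-nd3 and from 0.082 to 0.044 in Mt-nd5.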
